A study of Mus musculus with 3 samples.

Results

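The expression of 9 genes that decide whether lymphocytes leave or stay in a tissue was examined in mouse regulatory T cells (Tregs) that had experienced inflammation. The genes are the sphingosine 1-phosphate (S1P) receptors S1pr1, S1pr2, S1pr3, S1pr4 and S1pr5, the transcription factor Klf2, the oxysterol receptor Gpr183, the S1P lyase Sgpl1 and the activation marker Cd69. They were chosen by gene symbol in GENCODE annotation M21, and all 9 were found among the 55536 genes of the tables. The cells are primary Tregs from 1 donor of 12 weeks of age, the labels tracing them to activated regulatory T cells. The 3 libraries carry the labels technical replicates 1 to 3 of biological replicate 1, and all form 1 group without a control group. The sources used here do not state the strain, genotype, tissue, sorting gate or inflammatory agent.

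S1P is abundant in blood and lymph and scarce inside tissues, where the lyase encoded by Sgpl1 destroys it. A T cell that carries S1PR1 on its surface follows this gradient out of the tissue. KLF2 drives transcription of S1pr1, and CD69 protein binds S1PR1 and takes it off the cell surface, so that Cd69 is regarded as a retention gene. S1PR2 inhibits migration, and GPR183 positions lymphocytes along oxysterol gradients. On these roles, S1pr1, S1pr5 and Klf2 were put on the egress side, Cd69 and S1pr2 on the retention side, and S1pr3, S1pr4, Gpr183 and Sgpl1 on neither.

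Values are TPM, a level relative to transcript length and to the library total, and errors are standard deviations over the 3 libraries (SD, n = 3 throughout). Total expected counts per library ran from 31611422 to 37728241. The libraries are not known to come from separate animals, so the SD and all tests below measure the spread between these libraries only. The Treg markers Foxp3, Il2ra, Ikzf2, Ctla4, Cd4, Cd3e and Izumo1r were all detected, with a median of 377 TPM. Foxp3 was even across libraries at 98.1, 98.4 and 96.5 TPM, while Ctla4 (323, 230 and 289 TPM) and Ikzf2 (436, 345 and 350 TPM) were lowest in library 2. Library 3 also held gland transcripts, whose 6 listed genes summed to 56788 TPM there against 4.91 and 11.04 TPM in libraries 1 and 2. Rescaling TPM without those genes raised the library 3 values only slightly, for S1pr1 from 219 to 233 TPM. In bulk RNA, fewer cells of a type and less RNA per cell cannot be told apart.

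The promoter stretch of Klf2 is shown because Klf2 and its known target S1pr1 moved together between libraries, and that of S1pr4 because no difference between libraries was called for it. Promoter entries from RefSeq (build GRCm38.p6, the assembly also called mm10) matched 7 of the 9 genes, with none used for S1pr1 and Cd69. Each line gives the 250 bases before the RefSeq transcription start, 5′ to 3′ on the gene's strand. The Klf2 stretch lies at chr8:72318812-72319061 (plus strand) and the S1pr4 stretch at chr10:81500138-81500387 (minus strand). Capitals mark CACCC, the core of the box bound by KLF factors, on either strand (GGGTG on the other), and a box of the MEF2 type, CTA and TAG with any 4 bases between.

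Klf2: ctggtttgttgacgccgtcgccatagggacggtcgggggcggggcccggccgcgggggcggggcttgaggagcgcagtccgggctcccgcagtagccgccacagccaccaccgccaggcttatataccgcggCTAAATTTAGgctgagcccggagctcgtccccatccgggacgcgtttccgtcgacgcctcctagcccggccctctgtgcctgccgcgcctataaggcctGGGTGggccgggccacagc

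S1pr4: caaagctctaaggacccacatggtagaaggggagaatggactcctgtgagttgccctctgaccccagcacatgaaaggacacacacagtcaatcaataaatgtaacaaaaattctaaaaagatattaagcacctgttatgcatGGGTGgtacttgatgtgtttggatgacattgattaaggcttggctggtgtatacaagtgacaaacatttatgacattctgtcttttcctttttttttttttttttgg

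The Klf2 stretch held 1 MEF2-type box, which began 118 bases before the RefSeq start, and 1 KLF box at 19 bases. The M21 gene starts earlier than the RefSeq start, at 72319033, so the KLF box lies inside the M21 gene. MEF2 factors act downstream of the kinase ERK5, encoded by Mapk7, and are known activators of Klf2. A MEF2-type box occurred in 3.2% of 32817 promoter stretches of the same length, and in none of the other 6 genes with an entry. The S1pr4 stretch held 1 KLF box, at 107 bases, a motif found in 52% of all stretches. Other boxes were scanned but not marked. The Klf2 stretch held 2 GC boxes (6 bases long), at 214 and 195 bases, a motif found in 32.7% of all stretches. A FOXO box (7 bases long), found in 3.16% of all stretches, occurred in none of the 7 genes with an entry. These matches describe letters in a window and are not binding sites.

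Among the egress genes, Klf2 and S1pr1 were abundant and S1pr5 was nearly absent. Klf2 (ENSMUSG00000055148.7, chromosome 8, 72319033 to 72321656, plus strand, 3 exons) stood at 281, 409.8 and 289 TPM in libraries 1 to 3. Its mean of 327 ± 72.1 TPM placed it at rank 392 of the 10494 protein-coding genes detected, detected meaning 1 TPM or more in each library. S1pr1 (ENSMUSG00000045092.8, chromosome 3, 115710433 to 115715072, minus strand, 2 exons) stood at 209, 299 and 219 TPM, with a mean of 242 ± 49.0 TPM and rank 577. For both genes library 2 was the highest and libraries 1 and 3 lay close together. S1pr5 (ENSMUSG00000045087.8, chromosome 9, 21242912 to 21248443, minus strand, 3 exons), a receptor known from the egress of NK cells, stood at 0.43, 0.15 and 0.12 TPM, from 23, 7 and 7 reads.

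Both retention genes were detected, at lower levels than S1pr1. Cd69 (ENSMUSG00000030156.5, chromosome 6, 129267325 to 129275436, minus strand) stood at 130, 121 and 111 TPM in libraries 1 to 3, a mean of 120.4 ± 9.69 TPM. S1pr2 (ENSMUSG00000043895.6, chromosome 9, 20962361 to 20976781, minus strand) stood at 16.8, 18.3 and 15.7 TPM, a mean of 16.9 ± 1.30 TPM. The 3 libraries lay within a narrow range for both genes.

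**Figure D1:**
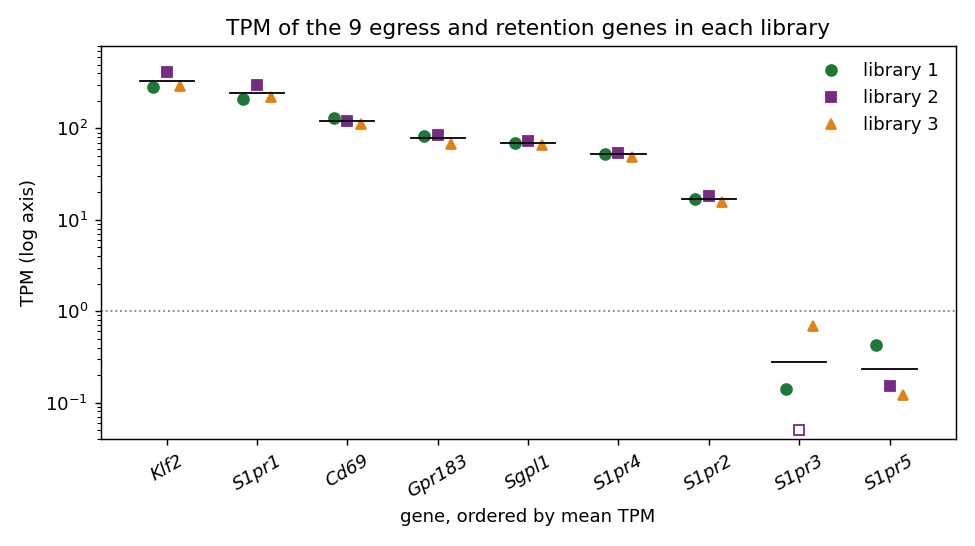
TPM (log axis) of the 9 genes in library 1 (circles), library 2 (squares) and library 3 (triangles), ordered by mean, which the horizontal bars mark; the dotted line is 1 TPM and the open square marks a value of 0, drawn at the foot of the axis. Klf2 and S1pr1 stand highest, at means of 327 and 242 TPM, and S1pr3 and S1pr5 stay below 1 TPM in every library.

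The remaining genes fell into a middle group and 1 that was nearly absent. Gpr183 (ENSMUSG00000051212.8, chromosome 14, 121952551 to 121965195, minus strand) stood at 82.9, 83.9 and 68.4 TPM, a mean of 78.4 ± 8.67 TPM. It overlaps Ubac2 (mean 127 TPM) on the opposite strand, and the sources used here do not state whether the counting used strand. Sgpl1 (ENSMUSG00000020097.14, chromosome 10, 61098642 to 61147703, minus strand) stood at 70.1, 72.1 and 65.8 TPM, a mean of 69.3 ± 3.24 TPM. S1pr4 (ENSMUSG00000044199.6, chromosome 10, 81497747 to 81500132, minus strand, 1 exon), a receptor largely confined to blood cells, stood at 52.8, 54.5 and 49.0 TPM, a mean of 52.1 ± 2.85 TPM. S1pr3 (ENSMUSG00000067586.4, chromosome 13, 51408639 to 51422797, plus strand, 2 exons), known from vessels and other non-lymphoid tissue, stood at 0.14, 0 and 0.69 TPM. Its reads numbered 14, 0 and 73, and the 0 of library 2 allows up to 3 reads.

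In the order of mean levels, Klf2, S1pr1, Cd69, Gpr183, Sgpl1, S1pr4, S1pr2, S1pr3 and S1pr5, some neighbours overlapped. The lowest Klf2 library (281 TPM) lay under the highest S1pr1 library (299 TPM). Gpr183 and Sgpl1 overlapped as well, as did S1pr3 and S1pr5. The other neighbours had ranges over libraries that did not meet. Of the 9 genes, 7 were detected, against 47.6% of all protein-coding genes.

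Within the S1P receptor family, transcripts of S1pr1 made up most of the summed TPM. S1pr1 took 74.9, 80.4 and 77.0% of it in libraries 1 to 3, and S1pr4 took 18.9, 14.7 and 17.2%. S1pr2 followed with 5.48 ± 0.549%. S1pr3 and S1pr5 together stayed under 1% in each library. The summed level of the family was 279, 372 and 285 TPM, highest in library 2, as S1pr1 was.

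The balance between egress and retention genes was read from differences in log2(TPM + 1) within each library, for 8 gene pairs. A pair was called apart where the sign was the same in all 3 libraries, the ranges of the genes stayed separate, and so did the bounds that the authors gave for each TPM. S1pr1 exceeded Cd69 by 0.68, 1.30 and 0.98 in libraries 1 to 3, a mean of 0.99 ± 0.31. Klf2 exceeded Cd69 by 1.11, 1.76 and 1.38, a mean of 1.41 ± 0.33. Both pairs were apart, with the largest difference in library 2 and the smallest in library 1. Whether those differences varied between libraries was not tested. S1pr1 exceeded the migration inhibitor S1pr2 by 3.75 ± 0.20, a 14.3-fold ratio of mean TPM, and by 2.499 ± 0.108 in the M4 counts described next.

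Among the receptors, S1pr1 stood above S1pr4 by 2.18 ± 0.24 and above Gpr183 by 1.60 ± 0.25. S1pr4 stood above S1pr5 by 5.44 ± 0.18, or 7.40 with 0.1 added in place of 1. These 3 pairs were apart, but in the authors' separate whole-number counts on the older annotation M4, taken per kilobase, S1pr1 exceeded S1pr4 by only 0.48 and Gpr183 by only 0.34. Klf2 exceeded S1pr1 by 0.42, 0.45 and 0.40, with an SD of 0.03, and was not apart, since the ranges of the genes met. Without correction for transcript length this difference turned around, to -0.31. For S1P breakdown, the lyase gene Sgpl1 lay below Sgpp1, an S1P phosphatase, by a difference of -0.27 ± 0.13. That pair was apart, but not in the M4 counts per kilobase (-0.07) or without length correction (-0.04).

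An exact permutation of the signs of the 3 differences, two-sided, gave p = 0.25 for every one of the 8 pairs, the smallest p that 3 libraries allow. In all, 7 pairs were apart. No pair could pass 0.05 in this design. The authors' bounds surround their posterior mean TPM, which for all 9 genes lay inside them, while the TPM itself lay above the upper bound for 6, 6 and 5 of the genes in libraries 1 to 3.

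**Figure D2:**
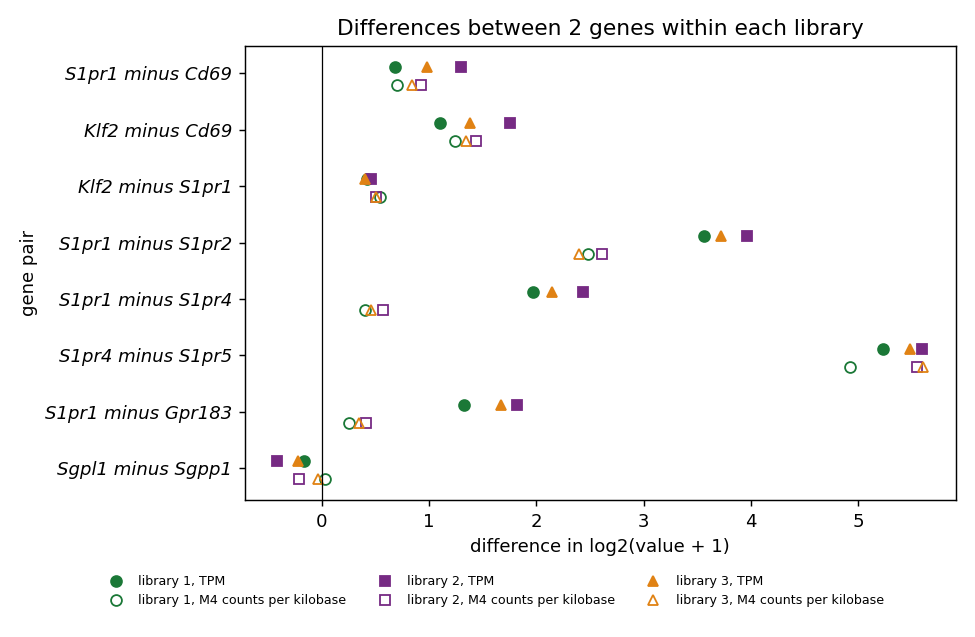
Difference in log2(value + 1) between the genes of each of the 8 pairs, by library (circles, squares and triangles for libraries 1, 2 and 3), from TPM (filled) and from M4 counts per kilobase (open). S1pr1 and Klf2 lie above Cd69 in all 3 libraries in both, while S1pr1 minus S1pr4 falls from a mean of 2.18 to 0.48 in the M4 counts.

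The libraries were then compared with each other by a chi-square test of scaled counts against Poisson counting noise, with Benjamini-Hochberg adjustment over 18253 genes. The test called 7 of the 9 genes different between libraries, beside 77.2% of all genes tested, so their share was near the background. S1pr1 had 13204, 19229 and 15104 scaled reads in libraries 1 to 3, a ratio of 1.46 between highest and lowest (adjusted p = 1.59e-249). Klf2 had 10626, 15825 and 11961 scaled reads, a ratio of 1.49 (adjusted p = 1.09e-236). For both, library 2 stood above the others, and library 1 was the lowest. Without library 2 the ratios were 1.14 for S1pr1 and 1.13 for Klf2. Cd69 had 5213, 4934 and 5019 scaled reads, a ratio of 1.06 with library 1 the highest (adjusted p = 0.0244). The Cd69 call was lost without library 1 (adjusted p = 0.483) and without library 2 (adjusted p = 0.0906).

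The other detected genes differed little between libraries. Gpr183 had a ratio of 1.14 with library 3 the lowest (adjusted p = 2.04e-09), but 1.03 without library 3 (adjusted p = 0.278). S1pr2 had a ratio of 1.13 (adjusted p = 0.0184), and was not called without library 1 or without library 2 (adjusted p = 0.0944 and 0.389). S1pr4 at a ratio of 1.05 (adjusted p = 0.171) and Sgpl1 at 1.05 (adjusted p = 0.0567) were not called, though Sgpl1 was without library 2 (adjusted p = 0.0304). In all, 4 of the 9 genes were called with library 2 the highest, namely S1pr1, Klf2, S1pr2 and Gpr183, beside 29.6% of all genes tested.

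A ratio of at least 2 was met by S1pr3 and S1pr5 only, beside 27.1% of all genes tested. S1pr3 was at least 20.99-fold higher in library 3 than in library 2, where the 0 was set to the floor of 3 reads, and S1pr5 had a ratio of 3.29 with library 1 the highest. Without library 2 the S1pr3 ratio was 5.21, while S1pr3 without library 3 and S1pr5 without library 1 had too few reads to be tested. Library 3 was also the library with the gland transcripts, and the part of these in the S1pr3 reads was not tested.

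The size of these differences depended on the noise model and on the quantification. Against negative binomial noise at the common dispersion of these libraries (a coefficient of variation of 0.234), only S1pr3 was called of the 9 genes, beside 12.3% of all genes tested. S1pr1 and Klf2 then had an adjusted p of 1. The dispersion came from these same 3 libraries, so differences between them are part of that noise. All 2244 genes called this way had a ratio of at least 2, a size that S1pr1 and Klf2 did not reach. A gene not called here, or in the lists below, is thus not shown to be even across libraries. In the M4 counts, S1pr1 and Klf2 were called of the 7 genes tested, beside 52.1% of all genes, with smaller ratios of 1.14 and 1.13. S1pr1 there had 225, 255 and 226 CPM (counts relative to the library total) and Klf2 199, 221 and 195 CPM. Library 2 was the highest for both genes in either quantification.

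**Figure D3:**
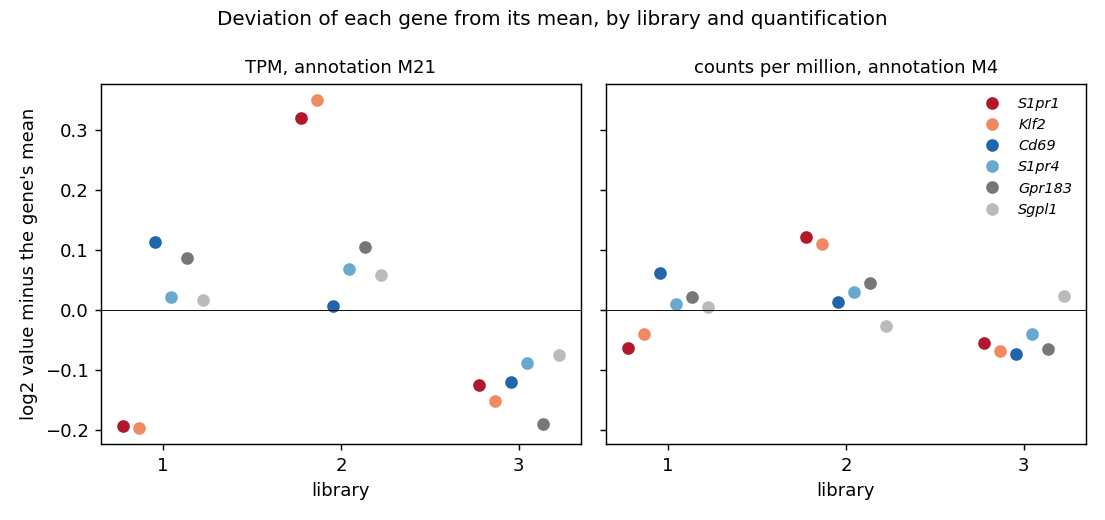
Deviation of each gene's log2 value from its own mean over libraries 1, 2 and 3 for 6 genes, from TPM (left) and from M4 CPM (right), points set side by side for legibility. S1pr1 and Klf2 lie above their means in library 2 in both panels, with a smaller deviation on the right, where their highest to lowest ratios are 1.14 and 1.13.

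S1pr1 and Klf2 followed nearly the same course over the 3 libraries. Likeness was measured as the distance between log2(TPM) values centred on each gene's mean, over 3 libraries and 6989 genes with a mean of at least 20 TPM. From S1pr1 to Klf2 this distance was 0.0395, and 14 genes lay nearer to S1pr1. Nearest to S1pr1 were R3hcc1, Hmgn1 and Fam76a, and nearest to Klf2 were Pcgf1, Trmt10c and Adpgk. Cd69 lay at 0.439 from S1pr1, with 4561 of the 6989 genes nearer to S1pr1, so this distance was not unusual. The nearest genes to Cd69 were Selenok, Pnisr and Rgs1. With only 3 values per gene many genes share a course, so these distances are descriptions.

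The wider list of egress and recirculation genes was split. All 7 genes reported were called different between libraries, beside 77.2% of all genes tested, and 3 of them had library 2 the highest. At high counts the test calls small ratios, such as 1.093 for Itgal. None of the 7 was called against negative binomial noise. The integrin chains Itgb7 and Itgal stood at 1082 ± 48.6 and 282 ± 2.61 TPM, and Il6ra at 52.9 ± 5.40 TPM. Cxcr4, lowest of the list at 62.5, 30.1 and 31.8 TPM, was highest in library 1. Of the genes named after their values were seen, the homing receptor Ccr7 had 245, 310 and 236 TPM, highest in library 2, and Il7r 314, 203 and 197 TPM, highest in library 1.

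Genes linked to tissue retention and residency were mostly lower in library 2 than in the others, with only 3 of 14 higher there than in library 1. Of the 14 genes, 12 were called, beside 77.2% of all genes tested, and only Runx3 of these was highest in library 2. Against negative binomial noise at the common dispersion 0 of the 14 were called, with 1 at an unadjusted p under 0.05. The median log2 ratio of library 2 over library 1 was -0.58 and over library 3 -0.37, beside 0.01 and 0.00 over all genes tested. Klrg1, a marker of effector cells, stood at 186, 107 and 126 TPM. The chemokine receptor Ccr8 stood at 137, 112 and 157 TPM, and Itga1 and Zfp683 were lowest at 1.05 ± 0.165 and 1.52 ± 0.368 TPM. Among genes named after their values were seen, Itgae, the epithelium-binding integrin chain CD103, had 115, 68.7 and 107 TPM. Il1rl1, the interleukin-33 receptor, had 48.8, 19.9 and 23.5 TPM. Library 2 was the lowest for each of these 4 genes, Klrg1, Ccr8, Itgae and Il1rl1. Cd69 did not share that course, since its library 2 and library 3 levels differed by a log2 ratio of only -0.02. In the M4 counts the list's median ratio of library 2 over library 1 was -0.39, with 11 of 14 genes lower. The list overlaps genes of activated Tregs already seen to be low in library 2, so it is no independent evidence of that direction. The Treg markers Ctla4 and Ikzf2 were also lowest in library 2 in TPM. In the M4 counts Ikzf2 was again lowest there (197.98, 180.42 and 197.89 CPM). Ctla4 was nearly even in those counts and lowest in library 3 (146.02, 143.19 and 142.05 CPM). The part of these 2 markers in the pattern was not tested.

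**Figure D4:**
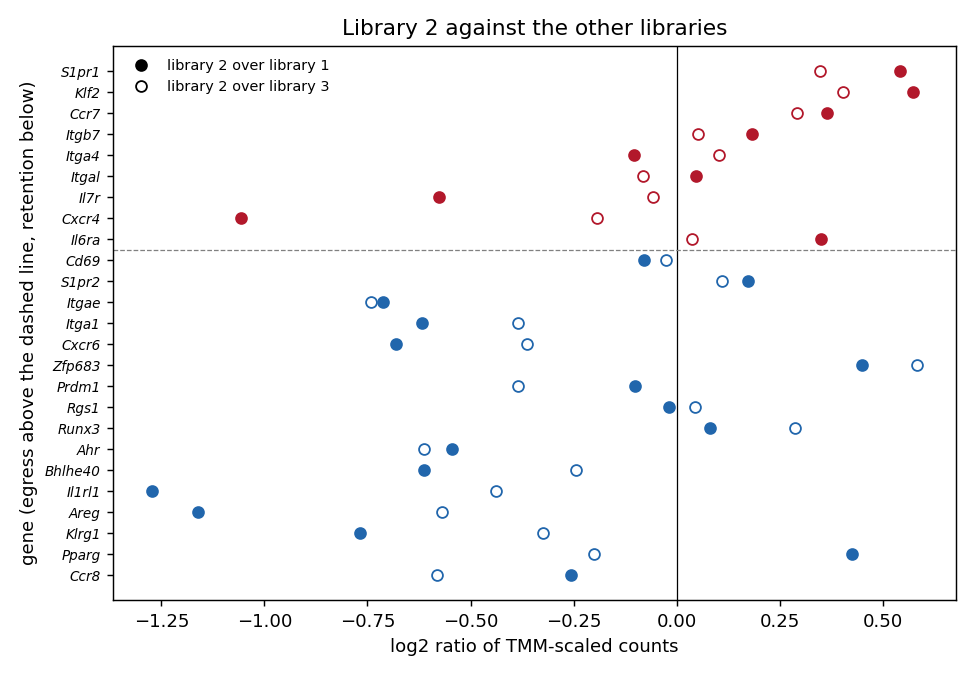
Log2 ratio of TMM-scaled counts of library 2 over library 1 (filled) and over library 3 (open). Red (above the dashed line) are S1pr1, Klf2 and the listed egress and recirculation genes. Blue (below) are Cd69, S1pr2 and the listed retention and tissue residency genes. The sides follow the lists, and no gene's role in these cells was tested. S1pr1, Klf2 and Ccr7 lie to the right of 0 in both ratios, Il1rl1, Areg, Klrg1 and Itgae to the left, and Cd69 close to 0.

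Genes that make, export and destroy S1P were present only in part. Of 20, 13 were detected, and 12 of the 18 tested were called different between libraries, beside 77.2% of all genes tested. The 2 called against negative binomial noise were Plpp3 and Asah2, named after their values were seen. The ceramide synthase Cers2 led at 210 ± 22.2 TPM, followed by the desaturase Degs1 at 89.4 ± 1.41 TPM and Sgpp1 at 84.1 ± 10.8 TPM. Sphk2, which encodes an S1P-forming kinase, stood at 26.7 ± 4.44 TPM, and its relative Sphk1 at 0.73, 0.30 and 0.13 TPM. The S1P exporters Spns2 and Mfsd2b lay below 1 TPM in every library, at most 0.49 and 0.50 TPM, and the ceramidase Acer1 at most 0.06 TPM.

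Genes through which S1P receptors signal and are switched off were all detected. All 22 were called, beside 77.2% of all genes tested, with 14 highest in library 2, beside 29.6%, and none with a ratio of 2. The median level of the list was 210.6 TPM, beside 8.887 TPM over all genes tested. At high counts the test calls small ratios, such as 1.018 for Dock2, so these shares are not comparable at equal depth. Against negative binomial noise 0 were called, and 0 had an unadjusted p under 0.05. Coro1a and Rac2, which act on the actin skeleton, stood at 2425 ± 109 and 2282 ± 104 TPM, and Arhgef1, an exchange factor that acts downstream of receptors, at 1222 ± 118 TPM. The receptor kinase genes differed in level, with Grk6 at 249 ± 19.8 TPM, Grk2, known to desensitise S1PR1, at 184, 159 and 199 TPM, and Grk5 at 2.34 ± 0.360 TPM. Grk2 was lowest in library 2, where S1pr1 was highest, but its scaled reads of 11047, 10680 and 13420 set library 3 apart. Its log2 ratio of library 2 over library 1 was only -0.05. Gnai2, the inhibitory G protein chain that S1PR1 couples to, stood at 617 ± 22.2 TPM, and Gnaq was at 10.3 ± 3.04 TPM.

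Regulators of G protein signalling, which shorten receptor signals, were detected in 8 of 9 cases. All 8 tested were called, beside 77.2% of all genes tested, but only 4 without library 3. The median level of this list, 109.2 TPM, was also above that of all genes tested. With negative binomial noise 0 of the 8 were called, and 0 had an unadjusted p under 0.05. Rgs1, a gene linked to T cell retention, led at 444, 412 and 378 TPM, close in course to Cd69 in TPM only. In scaled counts Rgs1 was lowest in library 3 and Cd69 in library 2. Rgs10 and Rgs19 followed at 276 ± 29.0 and 160 ± 12.6 TPM. Rgs11 was at 8.35 ± 0.299 TPM and Rgs18 at most 0.44 TPM.

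Klf2 was the most abundant of the 20 listed Klf factors and upstream regulators of Klf2. Klf3 and Klf13 stood at 242 ± 11.1 and 226 ± 17.5 TPM, whereas Klf4 was at 0.303 ± 0.0902 TPM. Of the 20 listed genes 19 were detected and 17 called, beside 77.2% of all genes tested. Library 2 was the highest for 13 of those called, Klf2 itself included, beside 29.6% of all genes tested. Against negative binomial noise 0 were called, and 0 had an unadjusted p under 0.05. Foxo1, a known activator of Klf2, had 72.9, 87.3 and 80.9 TPM, highest in library 2 with a ratio of 1.22 in scaled counts. Foxo4 lay at 1.72 ± 0.372 TPM. Mapk7 stood at 23.2 ± 2.10 TPM and Mef2d at 89.4 ± 6.90 TPM.

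The enzymes that make and degrade the oxysterol ligands of Gpr183 were scarce. Of 5, only Hsd3b7, a degrading enzyme, was detected, at 4.92 ± 1.05 TPM. Ch25h and Cyp7b1, which make the ligand, reached at most 0.10 and 0.02 TPM. Cyp27a1 had 0.53 TPM in library 1 and is listed at 0 in the others, and Cyp39a1 stood at 1.26 ± 0.265 TPM.

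At the level of transcripts, S1pr1, S1pr3, S1pr4, S1pr5 and Klf2 each had 1 annotated transcript. Of Cd69, the protein-coding Cd69-201 took 90.4, 90.1 and 87.7% of the gene's TPM, and the retained-intron transcript Cd69-204 took 9.26 ± 1.32%. S1pr2 was divided between the protein-coding S1pr2-201, at 47.9 ± 0.616%, and S1pr2-204, annotated as a processed transcript without coding sequence, at 48.5 ± 1.75%. The coding S1pr2-201 alone reached 8.11 TPM. Gpr183-201 took 99.3 ± 0.336%. Of Sgpl1, Sgpl1-201 took 64.7, 41.4 and 48.0% and Sgpl1-202 28.2, 50.6 and 47.0%, with both coding and of nearly equal length. Library 1 thus stood apart in the authors' estimate for Sgpl1. These shares are estimates from reads that transcripts have in common.

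Markers of other cells that express these genes were mostly low. Of 9 endothelial markers, which matter since vessels express S1pr1, S1pr3 and Klf2, Pecam1 alone was detected, at 74.0 ± 8.08 TPM, and it is also found on leukocytes. The defining endothelial genes Cdh5, Kdr and Tek had at most 0.52, 0.33 and 0.02 TPM, Tek from 2, 0 and 1 reads. The list's summed TPM was 71.6, 85.6 and 71.9, most of it Pecam1, and its part in the levels of S1pr1, S1pr3 and Klf2 was not tested. Of 7 NK cell markers, Klrb1c alone was detected, with Klre1 and Klra8 at 0 in every library and summed TPM of 3.51 to 3.58. Of 8 B cell markers 5 were detected, with summed TPM of 68.1, 71.9 and 70.6, and of 8 myeloid markers Cd68 alone, with sums of 2.59 to 4.53 TPM. The CD8 T cell markers Cd8a and Cd8b1 were highest in library 2, with sums of 19.4, 26.5 and 16.9 TPM, and their part in the library 2 levels of S1pr1 and Klf2 was not tested.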

How the data were processed

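Polyadenylated RNA of 3 libraries was analysed. The authors' deposited gene and transcript tables on mm10 with annotation M21 hold expected counts, TPM and FPKM, per the file headers, and the percent of a gene's TPM per transcript; posterior mean TPM and its bounds, a score here, were deposited too, without the level of the bounds. The deposited tables on M4 give raw counts in whole numbers. The aligner and counting program are not given in the sources used here. Rows that name no gene held 0.170 to 0.218% of expected counts and were left out.

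After rounding, expected counts were scaled by TMM (edgeR 4.0.16, R 4.3.3; alternative DESeq2 1.42.0 size factors). A chi-square test over the libraries was limited to genes averaging 10 reads or more, an adjusted p threshold of 0.05 and, for size, a ratio of 2. It was checked on counts simulated with Poisson noise, the noise that the test assumes. That check does not cover a wider spread between libraries. With 1 group, no quasi-likelihood contrast could be fitted. Pairs used a pseudocount of 1. Alternatives were a pseudocount of 0.1, FPKM, posterior means, M4 counts, no length correction, no filter, other noise, and each library left out. Scripts ran in Python 3.11.15 with scipy 1.17.1, pandas 2.3.3 and numpy 2.4.6. Intervals and floors cover counting error only.

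The genes and lists were chosen with earlier results of these data known. Named are all 9 genes, the 3 highest and 2 lowest of each list by mean TPM, genes that a result turns on, transcripts of at least 5% and, for S1pr1, Klf2 and Cd69, the 3 nearest patterns; others were named for their role or after their values were seen. 1 listed egress gene is not reported here.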

Additional observations from a re-analysis of the deposited data

How the results depend on the processing

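The order of S1pr1 and Klf2 over Cd69, and of S1pr1 over S1pr2, S1pr4 and Gpr183, kept its direction and stayed apart under each of the 8 alternatives run for these pairs. For the M4 counts per kilobase and without length correction, apart was judged on sign and ranges only, without bounds. The other alternatives reused the TPM bounds, and with a library left out only the remaining libraries had to meet the rule. Leaving out each library in turn moved S1pr1 minus Cd69 between 0.83 and 1.14 and Klf2 minus Cd69 between 1.24 and 1.57. Klf2 minus S1pr1 reversed to -0.31 without length correction and became apart in the M4 counts per kilobase (0.52) and without library 2 (0.41), with a range of 0.41 to 0.44 over the left-out libraries. Sgpl1 minus Sgpp1 was no longer apart in the M4 counts per kilobase (-0.074) and without length correction (-0.044). The count of 7 genes called different between libraries fell to 1 under negative binomial noise and to 2 in the M4 counts, where S1pr3 and S1pr5 had too few counts to be tested. It ranged from 4 (without library 1, where S1pr2 and Cd69 were not called and S1pr5 was not tested) to 6 with 1 library left out (without library 2, where Cd69 and S1pr2 lost their call and Sgpl1 gained one), and was 5 without library 3, where Gpr183 lost its call and S1pr3 was not tested. The 2 genes with a ratio of at least 2 became 0 in the M4 counts, neither being tested there, and 1 to 2 with 1 library left out. Alternatives added after seeing the data gave, in the M4 counts, 5 called genes in place of 12 for S1P metabolism, 14 in place of 22 for receptor coupling, 4 in place of 8 for RGS genes and 11 in place of 17 for Klf factors. Against negative binomial noise, also added, 2 were called for S1P metabolism and 0 for each of the other lists, of which the egress and retention lists had 1 gene each at an unadjusted p under 0.05 and the rest 0. The dispersion of that noise came from these same libraries, and every gene it called had a ratio of at least 2. Without library 3, RGS genes fell to 4 and oxysterol enzymes rose from 1 to 2, while the retention list had 10 called genes in place of 12. The mean of S1pr4 was 48.6 TPM as posterior mean. Apart from the alternatives' own construction, the cause of these changes was not tested. For S1pr3 and S1pr5, fewer than 100 reads per library limit every statement.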

Other observations

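The 2 deposited quantifications did not scale alike, for these genes or for others. Per read counted on annotation M4, the M21 tables held 6.34, 7.61 and 7.08 reads of S1pr1 in libraries 1 to 3, 5.76, 7.24 and 6.49 of Klf2 and 6.30, 5.78 and 6.54 of Cd69. For S1pr4 the same ratio was only 2.12, 2.06 and 2.18, and for Gpr183 3.00, 2.84 and 2.81, beside 3.66, 3.53 and 3.81 over all genes. S1pr1 and Klf2 thus had their largest ratio in library 2, the library in which their TPM was highest, and Cd69 its smallest. Wider gaps occurred among other highly counted genes. In library 1, Rac2 had 58637 M21 and 1326 M4 reads and Coro1a 78246 and 3226, though Dock2 had 42204 and 10244. The gland gene Bpifa2 in library 3 had 891348 and 1790. A smaller M4 difference is thus not particular to S1pr1 and Klf2. Why the quantifications differ was not tested.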
